A study of Homo sapiens with 4 samples.

Results

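The genes described here are 10 inhibitors of the MAPK pathway, taken out of the 25121 genes with a symbol that kept a spot after outlier flags. They are the dual-specificity phosphatases DUSP1, DUSP4, DUSP5 and DUSP6, the Sprouty genes SPRY1, SPRY2 and SPRY4, the Sprouty-related genes SPRED1 and SPRED2, and the receptor-type tyrosine phosphatase PTPRR. PTPRR was included because its signal was higher after ESS2 knockdown in both cell lines, and the others by family membership. The 10 are called feedback genes below, a name that does not imply induction of PTPRR by ERK. The genes were chosen by family and by the PTPRR ratio with the knockdown ratios known, so those ratios are given as a description and carry no test. All probes of these genes were used, 13 in all, of which 7 genes have 1 and 3 genes have 2.

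In the MAPK pathway, growth factor receptors activate RAS, which passes the signal through RAF and MEK kinases to ERK. ERK then induces transcription of its own inhibitors. Dual-specificity phosphatases remove phosphate from both the threonine and the tyrosine of active MAP kinases, Sprouty proteins act between the receptor and RAF, SPRED proteins bring the RAS-inactivating protein neurofibromin to the membrane, and PTPRR is a tyrosine phosphatase that binds and dephosphorylates ERK. Because several of these transcripts follow ERK activity closely, they are widely used as readouts of the pathway in epithelial cancers.

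RNA was measured in PC3 and DU145, established human prostate cancer cell lines, on 4 single-colour Agilent arrays. PC3-shC and DU145-shC carried an shRNA against luciferase, a sequence absent from human cells, and PC3-shESS2 and DU145-shESS2 carried an shRNA against ESS2, a nuclear protein linked to splicing and transcription. The labels describe the control cells as transduced, while the methods of the study describe plasmid transfection and puromycin selection for PC3 and do not describe how the DU145 lines were made. Each condition has 1 array, so no ratio within a cell line has a replicate check, and each line was hybridised on a slide of its own with a different scanner software release, so that line, slide and scan cannot be told apart. In RNA from a whole culture, a change in the number of expressing cells and a change in RNA per cell cannot be told apart either.

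ESS2 itself had signals of 133 in PC3-shC, 53.6 in PC3-shESS2, 85.7 in DU145-shC and 17.3 in DU145-shESS2, 2.75-fold lower in PC3 and 5.10-fold lower in DU145 under knockdown. The share of gene probes' spots detected well above background was 50.8 to 52.6%, and all 5 epithelial markers (keratins KRT8, KRT18 and KRT19, and the adhesion genes EPCAM and CDH1) were detected on every array. CTNNA1, which is deleted in PC3, was undetected on the PC3 arrays and detected on the DU145 arrays. The prostate gene KLK3, which encodes prostate-specific antigen, was detected on no array, while KLK2 was detected on all 4 with signals of 9.94 to 21.8. TMPRSS2, a prostate protease gene, had signals of 104, 43 and 15.1 in PC3-shC, PC3-shESS2 and DU145-shC and was not well above background in DU145-shESS2. Of the markers of other cell types, 2 to 3 of 4 leukocyte, 2 to 3 of 3 endothelial and 1 of 4 fibroblast genes were detected, with summed signals of 124 to 325, 60.2 to 410 and 81.5 to 273. The leukocyte marker CD14 went from 221 to 54.7 in PC3 and from 172 to 274 in DU145, and the endothelial marker PECAM1 from 338 to 16.4 in PC3. EPCAM went from 2120 to 357 in DU145, 6.11-fold lower after knockdown. The part of these shifts in the results below was not tested.

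The promoters of DUSP1, DUSP6 and SPRY4 are shown because each gene has a single RefSeq start and together they cover the 3 patterns seen below, a higher signal after knockdown in both lines, opposite directions in the lines, and a lower signal in both lines. Each sequence is the 250 bases upstream of the start, written 5′ to 3′ on the minus strand of GRCh38.p14, at chr5:172771196-172771445 for DUSP1, chr12:89352502-89352751 for DUSP6 and chr5:142324248-142324497 for SPRY4. Capitals mark matches on either strand to TGACG, the core bound by CREB and ATF factors, and to CCAAT, the NF-Y motif.
DUSP1 promoter: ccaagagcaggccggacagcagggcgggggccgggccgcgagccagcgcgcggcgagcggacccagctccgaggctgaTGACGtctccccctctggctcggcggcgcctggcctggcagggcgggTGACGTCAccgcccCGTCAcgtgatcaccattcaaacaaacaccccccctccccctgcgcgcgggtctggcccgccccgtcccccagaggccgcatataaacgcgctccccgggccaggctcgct
DUSP6 promoter: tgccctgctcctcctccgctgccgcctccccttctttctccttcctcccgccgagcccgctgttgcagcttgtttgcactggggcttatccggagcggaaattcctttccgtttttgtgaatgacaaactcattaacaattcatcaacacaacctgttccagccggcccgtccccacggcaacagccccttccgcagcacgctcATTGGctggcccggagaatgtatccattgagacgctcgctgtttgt
SPRY4 promoter: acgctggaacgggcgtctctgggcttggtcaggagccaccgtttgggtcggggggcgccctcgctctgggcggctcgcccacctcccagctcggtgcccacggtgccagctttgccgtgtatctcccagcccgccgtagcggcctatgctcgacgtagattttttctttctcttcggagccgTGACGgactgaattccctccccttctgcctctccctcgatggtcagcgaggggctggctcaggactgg

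The DUSP1 promoter held 4 matches to TGACG, a pair of which overlap in the full palindrome TGACGTCA. The SPRY4 promoter held 1 TGACG match and the DUSP6 promoter none. CCAAT had 1 match in DUSP6 and none in DUSP1 or SPRY4. Over all 35116 RefSeq promoter windows of the same length, 21.2% held TGACG, 1.65% held TGACGTCA and 32% held CCAAT. The RefSeq promoter table gave entries for 8 of the 10 genes, with 14 windows, and DUSP4 and DUSP5 were not matched. Among these windows TGACG was found in 3 (DUSP1, SPRY2 and SPRY4) and the ETS core CCGGAA in 2 (SPRY1 and SPRY2), against 14.5% of all windows for CCGGAA. The AP-1 motif TGANTCA, in 6.57% of all windows, and the CArG box of serum response factor, in 1.16%, were in 0 of the 14. These matches describe the letters of the windows and say nothing of what was bound.

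All 10 genes could be compared in both lines, and 9 were well above background on all 4 arrays, with PTPRR the exception. The 10 genes did not move together after ESS2 knockdown. In PC3, 3 were higher and 7 lower in PC3-shESS2 than in PC3-shC, with 1 higher and 2 lower by more than 2-fold, where 7.81% of the 16764 genes compared lay past 2-fold, 3.82% higher and 3.98% lower. In DU145, 6 were higher and 4 lower, with PTPRR alone past 2-fold, where 4.83% of 16842 genes lay past 2-fold, 2.36% higher and 2.47% lower. Since the genes were chosen with these ratios known, nothing is read from the shares. The median log2 ratio of the 10 genes was -0.20 in PC3 beside -0.063 over all genes, and 0.084 in DU145 beside -0.022.

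**Figure D1:**
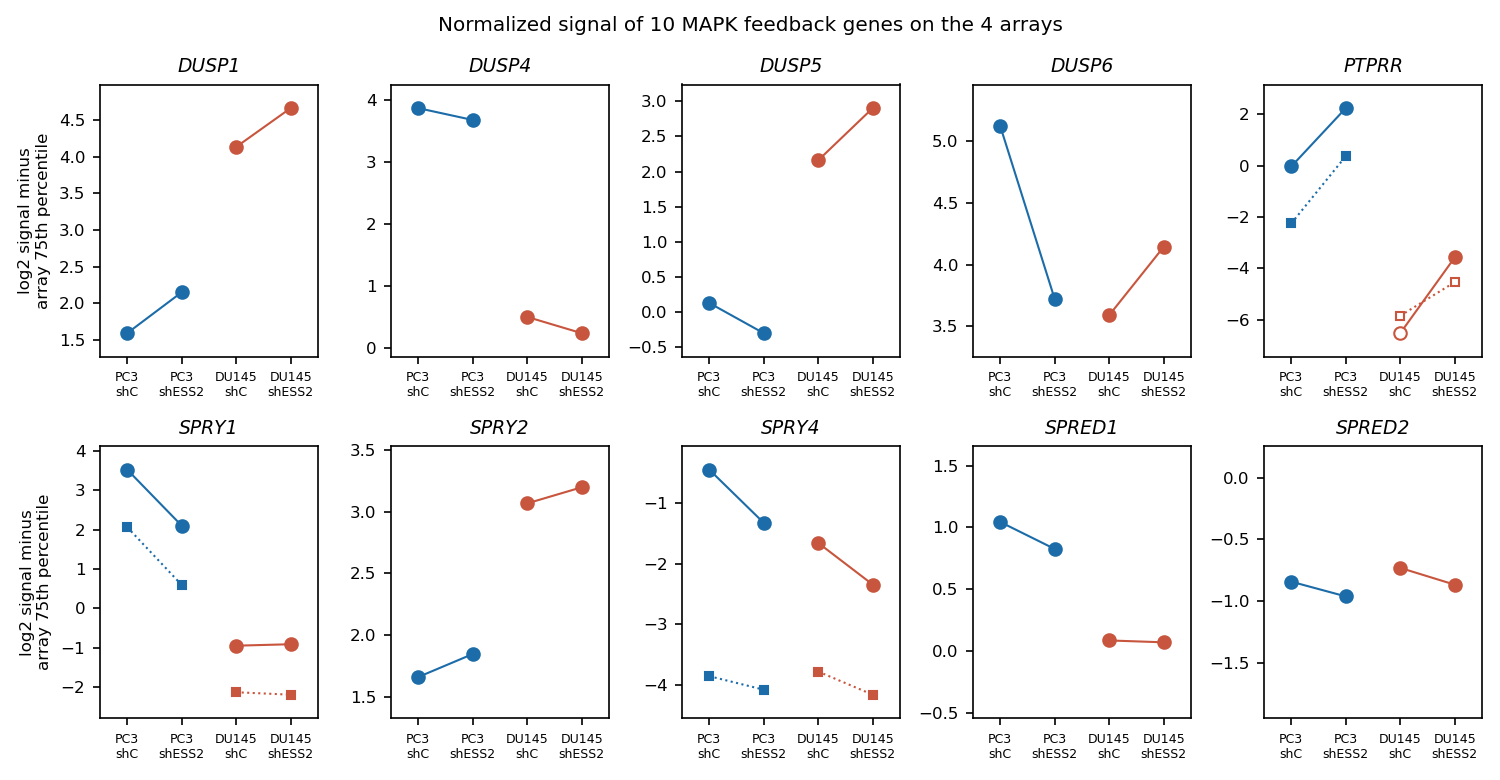
Normalized signal of each gene on the 4 arrays, as log2 of the signal minus the 75th percentile of the array, with PC3 in blue and DU145 in red. Circles and solid lines show the brightest probe of the gene, squares and dotted lines a further probe, and open symbols a spot not well above background; the vertical axes differ between genes. DUSP6 goes from 8960 to 3770 in signal in PC3 and from 2520 to 3800 in DU145, and PTPRR lies far lower in DU145 than in PC3.

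Among the dual-specificity phosphatases, DUSP1, a nuclear phosphatase induced early by stress and mitogens that acts on p38, JNK and ERK, was higher after knockdown in both lines. Its probe is spotted 10 times on each array. The mean signal over these spots was 779.1 ± 50.2 (SD, n = 10 spots) in PC3-shC, 1273 ± 103 in PC3-shESS2, 3671 ± 265 in DU145-shC and 5443 ± 271 in DU145-shESS2. The spots of the control array and the knockdown array, as signals before scaling, did not overlap in either line, at 684 to 868 against 1110 to 1420 in PC3 and 3200 to 4020 against 5030 to 5910 in DU145. How many other probes spotted 10 times separate in this way was not counted. After scaling, the difference was 1.47-fold in PC3 and 1.44-fold in DU145, log2 ratios of 0.56 and 0.53. This spread covers repeated spots of a single labelled RNA and not repeated cultures. In the ranking of all genes, 89.4% had a lower ratio than DUSP1 in PC3 and 91.6% in DU145.

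**Figure D2:**
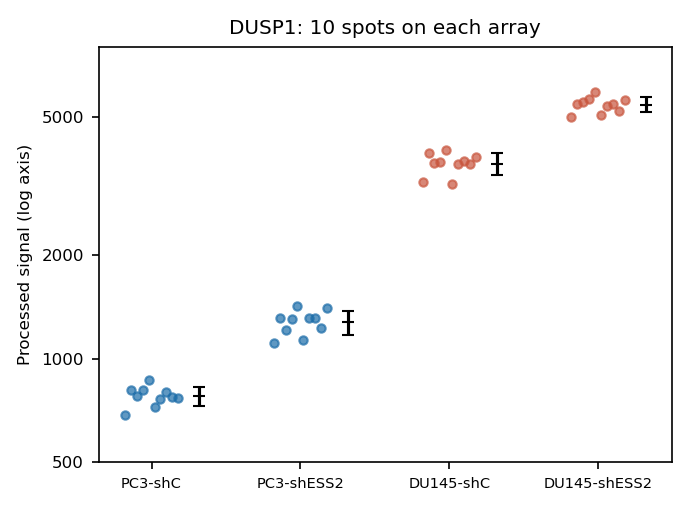
Processed signal of the 10 DUSP1 spots on each array on a log axis, with the mean and SD over spots beside them. The lowest knockdown spot lies above the highest control spot in both lines, 1110 against 868 in PC3 and 5030 against 4020 in DU145, and every DU145 spot lies above every PC3 spot. The signals are shown before scaling between arrays.

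DUSP6, a cytoplasmic phosphatase specific to ERK whose transcript is a standard marker of ERK output, went opposite ways in the lines. Its signals were 8960 in PC3-shC, 3770 in PC3-shESS2, 2520 in DU145-shC and 3800 in DU145-shESS2. The PC3-shC array was the high one, and the other 3 lay within a narrower range. DUSP6 was 2.63-fold lower after knockdown in PC3 (log2 ratio -1.40) and 1.47-fold higher in DU145 (0.55), so that 1.92% of genes had a lower ratio in PC3 and 92.2% in DU145.

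DUSP5, a nuclear phosphatase also specific to ERK, had the same opposed directions. Its signals were 281, 231, 934 and 1610 on the PC3-shC, PC3-shESS2, DU145-shC and DU145-shESS2 arrays. Both DU145 arrays were higher than both PC3 arrays, and within a line DUSP5 was 1.35-fold lower in PC3 (log2 ratio -0.43) and 1.68-fold higher in DU145 (0.74) after knockdown. The difference between the lines in response could not be tested for either gene, because an interaction term would leave no residual degree of freedom. The log2 ratio of a single spot had a median SD of 0.079 in each line, and both ratios of both genes exceeded 2 of these SDs, which cover spotting error only and not the difference between cultures.

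DUSP4, a nuclear phosphatase induced by ERK, had signals of 3770 in PC3-shC, 3660 in PC3-shESS2, 295 in DU145-shC and 253 in DU145-shESS2. The lines stood far apart, and the knockdown arrays lay close to their controls. The log2 ratio was -0.19 in PC3 and -0.26 in DU145, with 35.9 and 24.3% of genes lower.

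Among the Sprouty genes, SPRY1 was lower in PC3-shESS2 and near its control in DU145. The brighter of its probes gave signals of 2980 in PC3-shC, 1230 in PC3-shESS2, 108 in DU145-shC and 114 in DU145-shESS2, and the other probe 1080, 432, 47.5 and 46.8. Both probes had the same order of arrays between the lines, with PC3-shC highest. The difference was 2.69-fold in PC3 by the brighter probe (log2 ratio -1.43) and 2.77-fold by the other (-1.47), while in DU145 the log2 ratios were 0.04 and -0.06, under 1 spot SD. For SPRY1, 1.83% of genes had a lower ratio in PC3 and 57.2% in DU145.

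SPRY4 was lower after knockdown in both lines. Its brighter probe had signals of 189, 114, 66.2 and 42.3 on the PC3-shC, PC3-shESS2, DU145-shC and DU145-shESS2 arrays. In each line the knockdown array was the lower one, by 1.84-fold in PC3 (log2 ratio -0.88) and 1.61-fold in DU145 (-0.69), with 5.11 and 6.24% of genes lower. The other probe was dim, with signals of 17.8, 16.9, 15.2 and 12, where the lowest signals well above background were 8.15 to 9.02. Its log2 ratios had the same direction and were smaller, -0.22 in PC3 and -0.38 in DU145.

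SPRY2 had signals of 817 in PC3-shC, 1030 in PC3-shESS2, 1750 in DU145-shC and 1970 in DU145-shESS2. The DU145 arrays were the higher ones, and the log2 ratio after knockdown was 0.19 in PC3 and 0.13 in DU145. SPRED1 had signals of 532, 507, 222 and 226 in the same order of arrays, with log2 ratios of -0.22 and -0.02. SPRED2 had signals of 144, 147, 126 and 118, with log2 ratios of -0.12 and -0.14. The ratios of SPRED2 in both lines, and those of SPRY1, SPRY2 and SPRED1 in DU145, were within 2 spot SDs of no change, so that no difference was detectable by a single spot. The direction of SPRED1 and SPRY1 in DU145 turned under some scaling or probe settings.

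PTPRR had the highest ratio of the 10 genes in PC3. Its brighter probe gave signals of 252 in PC3-shC, 1350 in PC3-shESS2, 2.26 in DU145-shC and 18 in DU145-shESS2, and the DU145-shC spot was not well above background. The other probe gave 54.1, 369, 3.62 and 9.23, with neither DU145 spot well above background. In PC3 the difference was 4.83-fold by the brighter probe (log2 ratio 2.27) and 6.15-fold by the other (2.62), and 99.5% of genes had a lower ratio than the brighter probe. In DU145 it was at least 2.02-fold, against the lowest signal well above background on the control array. That bound sat at the 2-fold limit, and with normexp background correction, which here adds a constant to every signal, the DU145 log2 ratio was 0.22. It was 0.53 when the probes were averaged, and both values lay below that of DUSP5. The direction of PTPRR was part of how it was chosen.

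**Figure D3:**
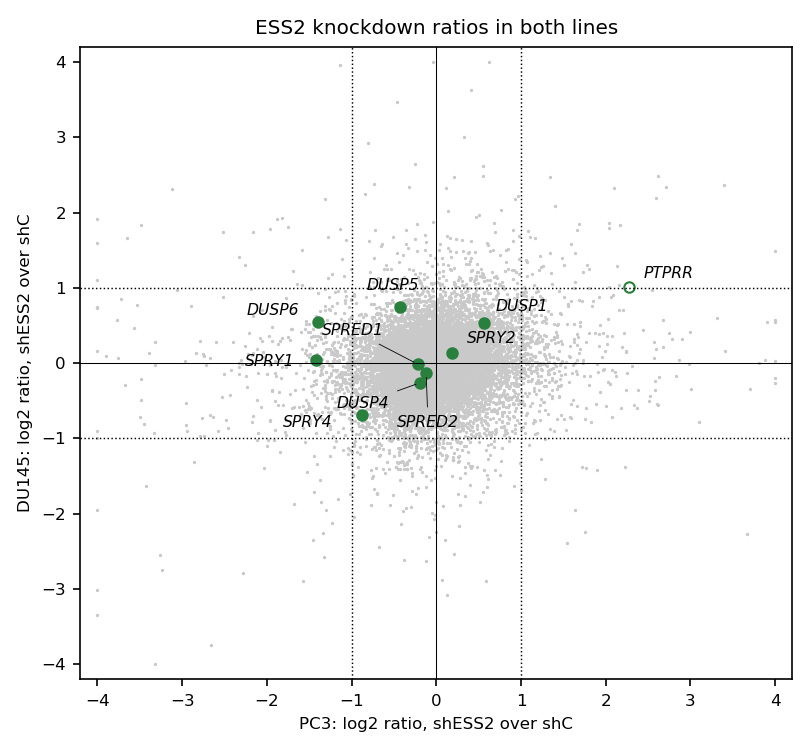
Log2 ratio of knockdown over control in PC3 (horizontal) against DU145 (vertical), with the 10 genes in green over all genes compared in both lines in grey and dotted lines at 2-fold. Grey points beyond 4 on either axis are drawn at the edge, and the open circle of PTPRR is a lower bound in DU145. DUSP6 (-1.40, 0.55) and DUSP5 (-0.43, 0.74) lie in the upper left, SPRY4 (-0.88, -0.69) in the lower left, and DUSP1 (0.56, 0.53) in the upper right.

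The lines themselves differed in most of these genes. For PTPRR this comparison shares the control arrays with the ratios that chose it, so its values are a description. In the control arrays, 8 of the 10 genes differed by more than 2-fold between DU145-shC and PC3-shC, 3 higher and 5 lower in DU145, where 42.0% of the 17475 genes compared did so, 19.8% higher and 22.3% lower. SPRY1 was 22.4-fold lower in DU145-shC than in PC3-shC and DUSP4 10.4-fold lower. DUSP1 was 5.81-fold higher, DUSP5 4.10-fold higher and SPRY2 2.64-fold higher in DU145-shC. DUSP6 was 2.88-fold and SPRY4 2.31-fold lower, and PTPRR at least 23.6-fold lower by its brighter probe and at least 5.07-fold by the other. SPRED1 was 1.94-fold lower and SPRED2 1.08-fold higher, both under 2-fold. The median log2 ratio of the 10 genes was -1.08 beside -0.13 over all genes.

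The same comparison between the knockdown arrays kept the direction of all genes but DUSP6. DUSP4 was 10.9-fold lower in DU145-shESS2 than in PC3-shESS2, SPRY1 8.11-fold lower and PTPRR 56.4-fold lower. DUSP1 was 5.70-fold, DUSP5 9.27-fold and SPRY2 2.54-fold higher in DU145-shESS2. DUSP6, 2.88-fold lower in DU145 among the controls, was 1.34-fold higher in DU145 among the knockdown arrays.

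**Figure D4:**
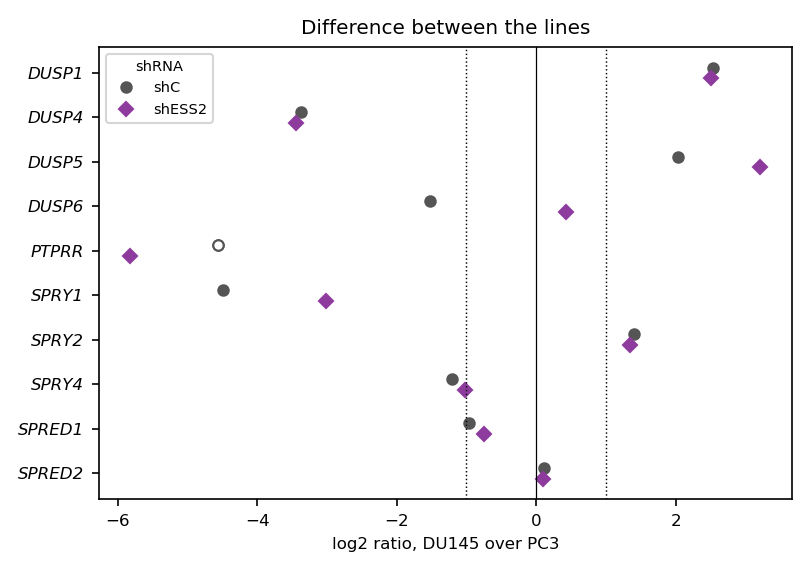
Log2 ratio of DU145 over PC3 for each gene, between the control arrays (grey circles) and between the knockdown arrays (purple diamonds), with dotted lines at 2-fold. The open circle of PTPRR is a bound set by the lowest signal well above background in DU145-shC. DUSP6 is the gene whose symbols lie on opposite sides of 0, at -1.53 and 0.42.

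A limma fit over all 4 arrays, with knockdown as a block and a single residual degree of freedom whose variance is shared over genes, gave the difference between lines for each gene, with the Benjamini-Hochberg adjustment over all 17126 genes tested. The control and knockdown arrays of a line served as its replicates here. The residual is thus the difference between the lines in knockdown ratio, not the spread of repeated cultures. A gene with opposed ratios, such as DUSP6, has a larger SE. Line, slide and software release cannot be told apart in this fit. PTPRR, chosen on these arrays and with a DU145-shC value raised to the background limit, was left out of the count. Of the other 9 genes, 7 differed at an adjusted p under 0.05, 3 higher and 4 lower in DU145, beside 52.2% of all genes, 23.7% higher and 28.5% lower. The log2 difference was 2.53 ± 0.18 (SE) for DUSP1, with an adjusted p of 0.0031 by limma. For DUSP4 it was -3.41 ± 0.18 (limma adjusted p = 0.0020) and for DUSP5 2.62 ± 0.35 (limma adjusted p = 0.0092). SPRY1, at -3.75 ± 0.41, had a limma adjusted p of 0.0064, and SPRY2, at 1.38 ± 0.18, one of 0.0087. The 2 genes that did not pass were DUSP6, at -0.55 ± 0.53 (limma adjusted p = 0.42), and SPRED2, at 0.10 ± 0.18 (limma adjusted p = 0.65).

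Of the remaining genes, SPRY4 differed by -1.11 ± 0.18 and SPRED1 by -0.86 ± 0.18, with limma adjusted p of 0.014 and 0.026. The dim probe of SPRY4 gave a log2 ratio of 0.08 between the control arrays, unlike the -1.21 of the bright one. The sizes of these differences move with the scaling, since centring on the median in place of the 75th percentile shifts all log2 ratios of DU145-shC over PC3-shC by -0.45, and the scaled table of the authors shifts the median by 0.46. Under these settings SPRY1 lay between -4.93 and -4.02, DUSP4 between -3.82 and -2.92 and DUSP1 between 2.09 and 2.99. With scaling to the median SPRY2 came under 2-fold (0.95), SPRED1 passed it (-1.41) and SPRED2 turned to -0.34. SPRY4 came under 2-fold with the table of the authors (-0.75), under normexp (-0.74) and when its probes were averaged (-0.57). The bound for PTPRR moved most, from a log2 ratio of -4.56 to -2.12 under normexp and -3.45 when its probes were averaged.

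The other genes of the pathway were described by 5 lists holding 89 genes, of which 81 could be compared in PC3 and 85 in DU145. In PC3, 7 of the 81 were higher and 2 lower by more than 2-fold, where 3.82% of all genes were higher and 3.98% lower. In DU145, 6 of the 85 were higher and 0 lower, where 2.36 and 2.47% of all genes were. The median log2 ratio of the lists together was 0.063 in PC3 and 0.12 in DU145. Fitted over both lines with line as a block, limma called 0 of these genes at an adjusted p of 0.05 and 0 of the 17126 genes tested, with 9 of the 86 listed genes tested and 1041 of all genes at an unadjusted p under 0.05.

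The core of the pathway from receptor adaptors to ERK and its RSK kinases had 21 of 22 genes compared, with median log2 ratios of 0.14 in PC3 and 0.15 in DU145. NRAS, a RAS isoform, had signals of 217, 564, 297 and 299 on the PC3-shC, PC3-shESS2, DU145-shC and DU145-shESS2 arrays, a log2 ratio of 1.23 in PC3 and -0.03 in DU145. GAB1, a docking adaptor, had signals of 7.53, 22.5, 15.4 and 15.3, at least 2.27-fold higher in PC3-shESS2 because the PC3-shC spot was not well above background, with a PC3 log2 ratio of 0.14 under normexp. No core gene lay past 2-fold in DU145.

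Among the 23 transcripts known to be induced by ERK, 2 were higher and 1 lower past 2-fold in PC3 and 6 higher in DU145, with medians of 0.016 and 0.20. The AP-1 subunit gene FOSB had signals of 10.3, 32, 72.6 and 197 in the same order, at least 2.80-fold higher in PC3-shESS2 and 2.64-fold higher in DU145-shESS2. The ephrin receptor gene EPHA4 had signals of 148, 354, 18.5 and 60.9, 2.16-fold and 3.20-fold higher after knockdown. These were the members of the 5 lists past 2-fold in both lines, and with normexp correction neither was past 2-fold in either line.

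FOS, another AP-1 subunit gene, had signals of 29.2, 57.4, 1810 and 5260, 1.77-fold higher after knockdown in PC3 and 2.82-fold higher in DU145. EGR2, an early zinc finger factor, had signals of 305, 330, 94.6 and 356, and its log2 ratio was -0.03 in PC3 and 1.87 in DU145. HBEGF, an EGF receptor ligand, went from 1060 to 575 in PC3 (log2 ratio -1.03) and from 112 to 193 in DU145 (0.74), the opposed directions that DUSP5 and DUSP6 had, and in PC3 it came under 2-fold with quantile normalization (-0.91), the table of the authors (-0.94) and, narrowly, normexp. Further genes of the list were picked out after their values were seen. EGR1, an early factor related to EGR2, had log2 ratios of 0.87 in PC3 and 0.65 in DU145. The ETS factor genes ETV4 and ETV5, which like SPRY4 are ERK-induced, had log2 ratios of -0.68 and -0.63 in PC3 and -0.84 and -0.68 in DU145, and SPRY4 had -0.88 and -0.69. ETV1, the related ETS factor gene of the list, had 0.17 in PC3 and -0.72 in DU145.

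Of the 15 other dual-specificity phosphatases, 13 were compared in PC3 with a median of 0.33 and 14 in DU145 with a median of -0.12. DUSP10, which acts on JNK and p38, had signals of 50.6, 177, 30.3 and 28.2, a log2 ratio of 1.66 in PC3 and -0.14 in DU145. DUSP18 had signals of 20.3, 57.8, 75.8 and 68.0, with log2 ratios of 1.36 and -0.20. With normexp correction the PC3 log2 ratio of DUSP18 was 0.55 and that of DUSP10 came just under 2-fold.

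Of the 17 other negative regulators of RAS and ERK, 13 were compared in PC3 with a median of 0.084 and 15 in DU145 with a median of 0.19. The PC3 median turned in 3 of 8 alternatives and ran from -0.14 to 0.30. LRIG1, which promotes breakdown of EGF receptors, had signals of 1404, 296.3, 406.3 and 507.7, 5.26-fold lower in PC3-shESS2 and 1.21-fold higher in DU145-shESS2. RASAL2, a RAS GTPase-activating protein, had signals of 64.8, 149, 121 and 142, with log2 ratios of 1.05 and 0.19, and in PC3 it was 0.96 with scaling to the median, 0.98 with quantile normalization and 0.70 under normexp. The 12 kinases of the JNK, p38 and ERK5 branches had no member past 2-fold in either line, with medians of -0.16 in PC3 and 0.050 in DU145.

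**Figure D5:**
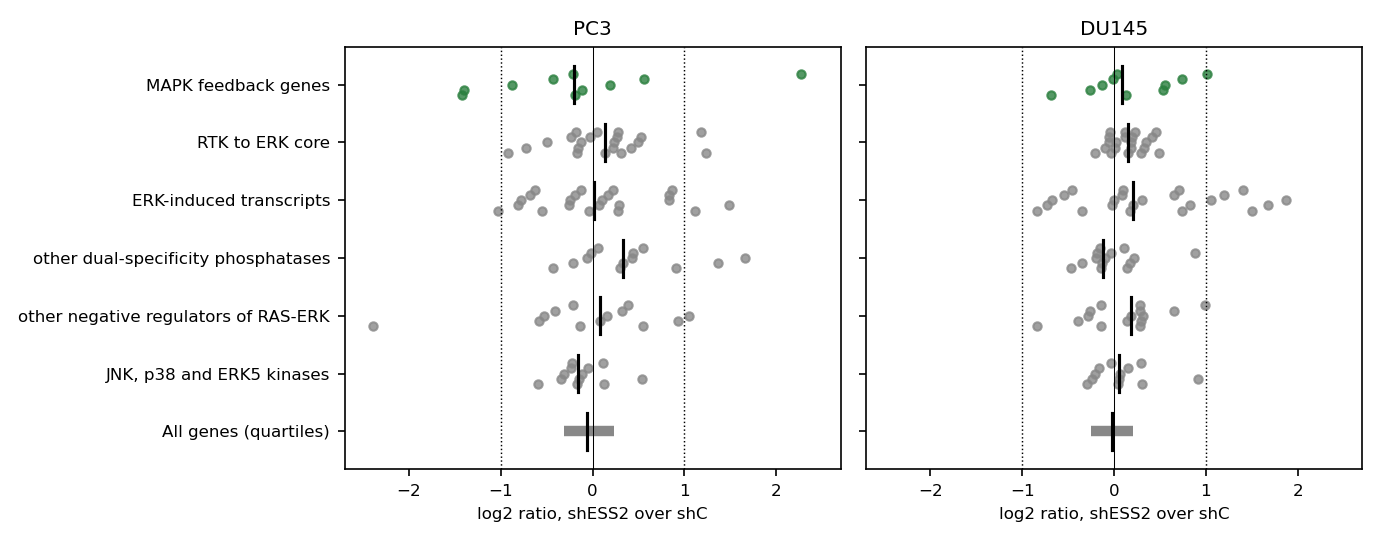
Log2 ratio of knockdown over control in PC3 (left) and DU145 (right) for the 10 feedback genes (green) and the 5 lists of other pathway genes (grey), with a black bar at each median and the quartiles of all genes at the bottom. The feedback genes run from -1.43 to 2.27 in PC3 and from -0.69 to 1.02, a bound, in DU145, and the list medians lie between -0.16 and 0.33 in PC3 and between -0.12 and 0.20 in DU145.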

How the data were processed

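The 4 arrays came from PC3-shC, PC3-shESS2, DU145-shC and DU145-shESS2 cells, grouped by the labels. The deposited scanner files hold the intensity of each spot, background-subtracted and detrended by Agilent Feature Extraction 12.1.0.3 (PC3) and 12.0.3.1 (DU145), with annotation on hg19. A table of intensity values scaled by the authors was also deposited, and each of its columns equalled the scanner signal times 1 constant. It is linear, not centred by gene and runs in the same direction, and the source of the constants is unknown. Column medians were 41.6, 47.5, 77.6 and 77.3.

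Here the log2 of the processed signal was taken and the 75th percentile of each array over non-control spots (signals of 258, 286, 209 and 215) was subtracted. Outlier spots were left out, spots of a probe were averaged, and a gene stood by its brightest probe. A gene was compared if 1 or both of the 2 arrays had it well above background, with a dim value raised to the lowest normalized value well above background. Limma 3.58.1 was fitted over genes detected on 2 or more arrays, and its adjusted p-values measure only the spread between these arrays, which may be technical. Spot spread came from 282 to 286 probes spotted 10 times. Of 58201 probes, 35080 had a symbol by accession in the RefSeq table of GRCh38.p14.

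The genes, lists and tests were chosen with earlier results of these data known. From each list are named the genes past 2-fold in both lines and, per line, up to 4 rises and 4 falls past 2-fold, besides ESS2. Some marker genes are not reported here. Alternatives were the scaling, background correction, filter, probe rule, outlier spots and the table of the authors. The limma test between the lines was added after seeing the data. The steps were tested on simulated data with spot noise only and equal shifts in both lines. That test covers neither the variation between cultures nor dim genes. The number of arrays limits the precision. Python 3.11.15, pandas 2.3.3, numpy 2.4.6 and R 4.3.3 were used.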

Additional observations from a re-analysis of the deposited data

Results flagged for a closer look

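Among the feedback genes and the listed pathway genes given with values above, those whose log2 ratio after ESS2 knockdown had opposite signs in the lines, each by more than 2 spot SDs, were DUSP5, DUSP6, HBEGF, ETV1, DUSP18 and LRIG1. Of the 80 listed pathway genes compared in both lines, 14 had such ratios. The share over all genes was not counted, so nothing is read from this number or from the genes named. DUSP5 had a log2 ratio of -0.43 in PC3 and 0.74 in DU145. DUSP6 had -1.40 in PC3 and 0.55 in DU145, and HBEGF -1.03 and 0.74. LRIG1 had -2.39 in PC3 and 0.28 in DU145. DUSP18 went the other way round, with 1.36 in PC3 and -0.20 in DU145, as did ETV1, with 0.17 and -0.72. The PC3 ratio of ETV1 was within 2 spot SDs with scaling to the median (0.07), quantile normalization (0.12), normexp (0.16) and averaged probes (0.03), and so was the DU145 ratio of DUSP18 under normexp (-0.14). The spot SD is a median over probes whose spots were all well above background. Its 95th percentile was 0.132 in PC3 and 0.125 in DU145. At 2 of these larger SDs, ETV1 in PC3 and DUSP18 in DU145 would not be flagged. The difference between the lines was not tested for any of these genes, since each condition has 1 array.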

How the results depend on the processing

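The labels carry no replicate numbers to pair samples by, and the limma fit of the knockdown pairs the arrays within each cell line. No array was left out, as each condition has 1. Of the alternatives to the main counts and medians, 132 stayed within 1.5 times or within the spot spread and 23 moved. PTPRR was the feedback gene past 2-fold in DU145, and the count was 0 with normexp correction, with both arrays required to be well above background, and with the mean of probes. In PC3 the counts of feedback genes past 2-fold were unchanged under all 8 alternatives, with DUSP6 between -1.49 and -1.27, SPRY1 between -1.52 and -1.27 and PTPRR between 1.98 and 2.45. The limma test between lines was added after seeing the data, and its count without PTPRR is given above beside the share of all genes.

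With normexp correction, 249 genes were higher and 323 lower past 2-fold in PC3, 142 and 77 in DU145, and 1999 were higher in DU145-shC than in PC3-shC, and 1 listed pathway gene was higher and 1 lower in PC3. ESS2 itself then had a log2 ratio of -0.90 in PC3 and -1.12 in DU145, and the PC3 median of the other dual-specificity phosphatases was 0.078 in place of 0.33. Without a filter on dim genes, 1411 were higher and 1224 lower in PC3 and 958 and 1062 in DU145, with 4 listed genes lower in PC3. With both arrays required to be well above background, 271 genes were lower in DU145. Quantile normalization and the scaled table of the authors each left 1 listed gene lower in PC3. The median of the lists in PC3 was -0.034 with scaling to the median, -0.034 without a filter and 0.16 with the table of the authors. That of the ERK-induced transcripts ran from -0.081 to 0.11 in PC3 and turned in 4 of 8 alternatives, and that of the other negative regulators fell to 0.015 in DU145 with averaged probes. Between the control arrays, 6137 genes were lower in DU145 with scaling to the median and 2399 with the table of the authors, so that 27.9 and 68.3% of calls were higher, beside 47.0%. In PC3 the share higher was 49.0%, and 38.6% with scaling to the median (507 higher, 806 lower) and 59.7% with the table of the authors (792 higher, 535 lower). In DU145 it was 48.8%, and 64.8% with normexp. The cause of these shifts was not tested. Of the values of single genes and lists and the limma counts at an unadjusted p, 417 stayed within the spot spread or within 1.5 times and 163 moved. Signals near the lowest well above background limit PTPRR in DU145, GAB1, FOSB and the second probe of SPRY4.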
